A study of Schizosaccharomyces pombe with 78 samples.

Results

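The genes at the ends of chromosomes I and II of fission yeast were followed through the strains of an Nrm1 phosphorylation study. They were taken by locus name, as the features whose identifiers begin with SPAC212, SPAC977, SPAC186, SPAC750, SPBC1348, SPBPB10D8, SPBPB21E7, SPBPB2B2 or SPBCPT2R1. Of 104 such features, 65 had a mean of at least 2 DESeq2-normalised reads over the 78 libraries and are the subtelomeric genes described here, out of 12683 features in all. They comprise 59 protein-coding genes and 6 pseudogenes, with 20 at the left and 9 at the right end of chromosome I, and 19 at the left and 17 at the right end of chromosome II. The other 39 features stayed below the minimum, 8 of them without a read in any library. The members nearest the minimum were pfl6 with a mean of 2.44 and SPBC1348.07 with 2.54, and the nearest features left out were SPAC212.09c with 1.70 and SPAC212.02 with 1.60.

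Nrm1 is the corepressor that, together with Yox1, silences the G1/S transcription factor MBF, and it is a substrate of the cyclin-dependent kinase CDK1. Nrm1-SA cells carried Nrm1 with most of its CDK sites changed to alanine, Nrm1-SD cells carried the phosphomimetic version, and Nrm1 cells carried the wild-type protein. The study names all 3 proteins with an HA tag in its synchronised cultures. All 3 strains were h- and carried cdc25-22, a temperature-sensitive allele of the phosphatase that activates CDK1, so that a shift to 36 °C for 4 h blocked them before mitosis. Libraries of polyadenylated RNA were made from untreated asynchronous cultures grown at 25 °C, from the block at 0 min, and every 20 min to 220 min after release to 25 °C, with 2 libraries for each of the 39 conditions. Each allele was followed in a single strain, so that the allele cannot be told apart from any other difference between the strains.

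In fission yeast the subtelomeres carry heterochromatin that spreads inwards from the chromosome end and, further in, a more compact chromatin with few active genes. The genes there are enriched in families with near-identical copies at other ends, in metabolic enzymes, transporters and cell surface proteins, and many are kept low in growing cells and induced by starvation or stress. The outermost are the tlh genes, which encode RecQ-type DNA helicases.

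Library size ranged between 2685381 and 10469416 reads with a median of 5818955.5. At 140 min the 2 Nrm1-SA libraries differed by less than sampling noise. Their chi-square per degree of freedom was 0.392, against at least 1.88 in the other pairs. They entered the fit of the 39 conditions as 1 sample. For the time course level, limma used their mean in both cultures and edgeR kept both libraries. Of 6 M-cell genes, expected in h- cells, 3 were lower and 0 higher in asynchronous Nrm1-SD than in Nrm1 by limma and edgeR. Over all features 0.709% were lower by limma and 0.473% passed both tools. Of 3 P-cell genes 0 were called there, and 1 was higher over the time course by both tools. In that time course contrast 0.867% of all features were higher and 0.985% lower by limma, and 1.18% passed both tools. Of the 6 M-cell genes 2 were lower in it by limma and 1 by both tools. In Nrm1-SA 4 of the 6 were higher over the time course by both tools, against 26.5% of all features in either direction. The largest M-cell difference in asynchronous Nrm1-SD was that of the M-factor precursor gene mfm2. It stood at 15.8 and 21.5 in asynchronous Nrm1-SD libraries, against 669.0 and 581.7 in Nrm1-SA and 458.2 and 386.0 in Nrm1 libraries. All 3 strains were labelled h-, and whether that difference has a part in the results for subtelomeric genes was not tested. In such bulk samples fewer cells expressing a gene and less RNA per cell cannot be told apart.

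Because the ends share sequence, the uniqueness of each gene was computed as the share of its 75-base stretches that occur once in the genome, 75 bases being the read length. All stretches were unique in 36 of the 65 members, fewer than 25% in 18, and none in 4. Among the 39 features below the minimum the picture was the reverse, since 3 were wholly unique and 23 had no unique stretch. The helicase gene tlh1 (SPAC212.11) was also below the minimum, with a mean of 0.047 and 1.34% unique stretches. How reads that match several places were counted is not given in the sources used here, so levels of genes with few unique stretches are uncertain, and a low value there does not show that the gene is silent.

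**Figure D1:**
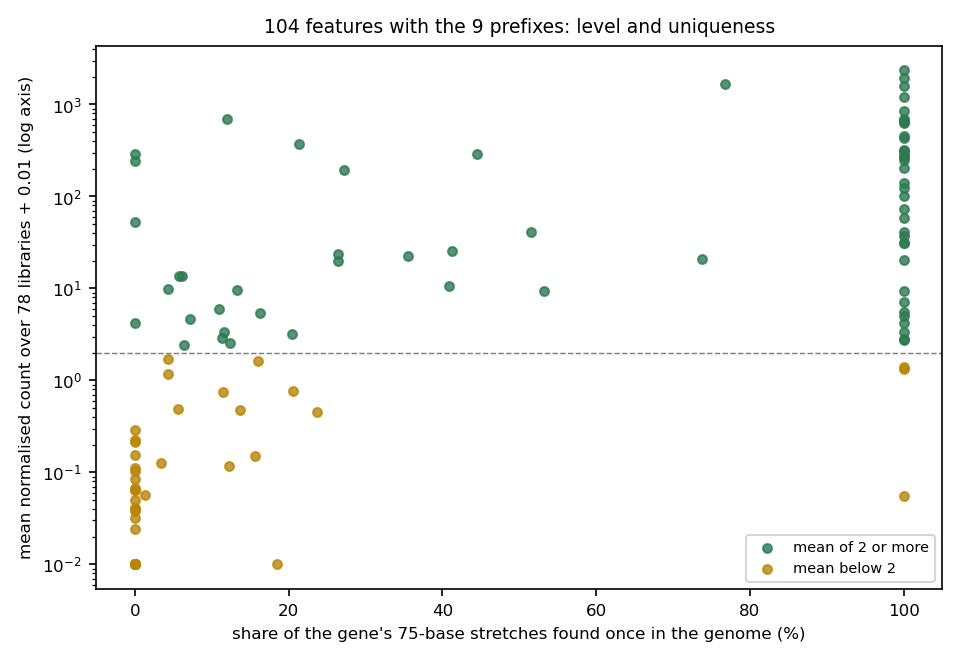
Share of 75-base stretches found once in the genome (x axis, percent) against the mean normalised count over 78 libraries plus 0.01 (y axis, log scale) for the 104 features, with the minimum of 2 as a dashed line. Features without unique stretches sit mostly below the line, with 4 above it.

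The level of each gene over the block and release was compared between strains on the mean log2(normalised count + 1) of each culture, taking the libraries of a strain with the same replicate number as 1 culture. The labels do not state that they are, and the p-values of the time course level rest on it. Over the time course, 31 subtelomeric genes were higher and 18 lower in Nrm1-SA than in Nrm1 (limma, Benjamini-Hochberg adjusted p under 0.1), and 43 of these 49 also passed edgeR's quasi-likelihood test on the recovered reads. Of all 10152 features tested, 16.7% were higher and 16.3% lower by limma in this contrast, and 26.5% passed both tools. The median log2 difference was 0.158 over the members and −0.004 over all features. In Nrm1-SD, 19 members were higher and 7 lower than in Nrm1, with 19 of the 26 passing both tools, against 0.867% higher, 0.985% lower and 1.18% by both tools over all features. Here the median was 0.213 over the members and −0.004 over all features. Both contrasts use the same Nrm1 libraries. The contrast without them, Nrm1-SD against Nrm1-SA, gave 23 members higher and 19 lower, 35 of them by both tools, against 14.7% higher, 15.9% lower and 23.2% by both tools over all features.

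The calls were spread unevenly over the arms. At the left end of chromosome I, 14 of 20 members were higher and 2 lower in Nrm1-SA, and 4 were higher and none lower in Nrm1-SD. At the right end of the same chromosome, 3 of 9 were higher and 6 lower in Nrm1-SA, and 2 were higher and 6 lower in Nrm1-SD. The left end of chromosome II had 7 higher and 7 lower of 19 in Nrm1-SA and 6 higher and none lower in Nrm1-SD. At its right end 7 of 17 were higher and 3 lower in Nrm1-SA, and 7 were higher and 1 lower in Nrm1-SD. Of the 36 members with wholly unique sequence, 13 were higher and 13 lower in Nrm1-SA, and of the other 29, 18 were higher and 5 lower.

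**Figure D2:**
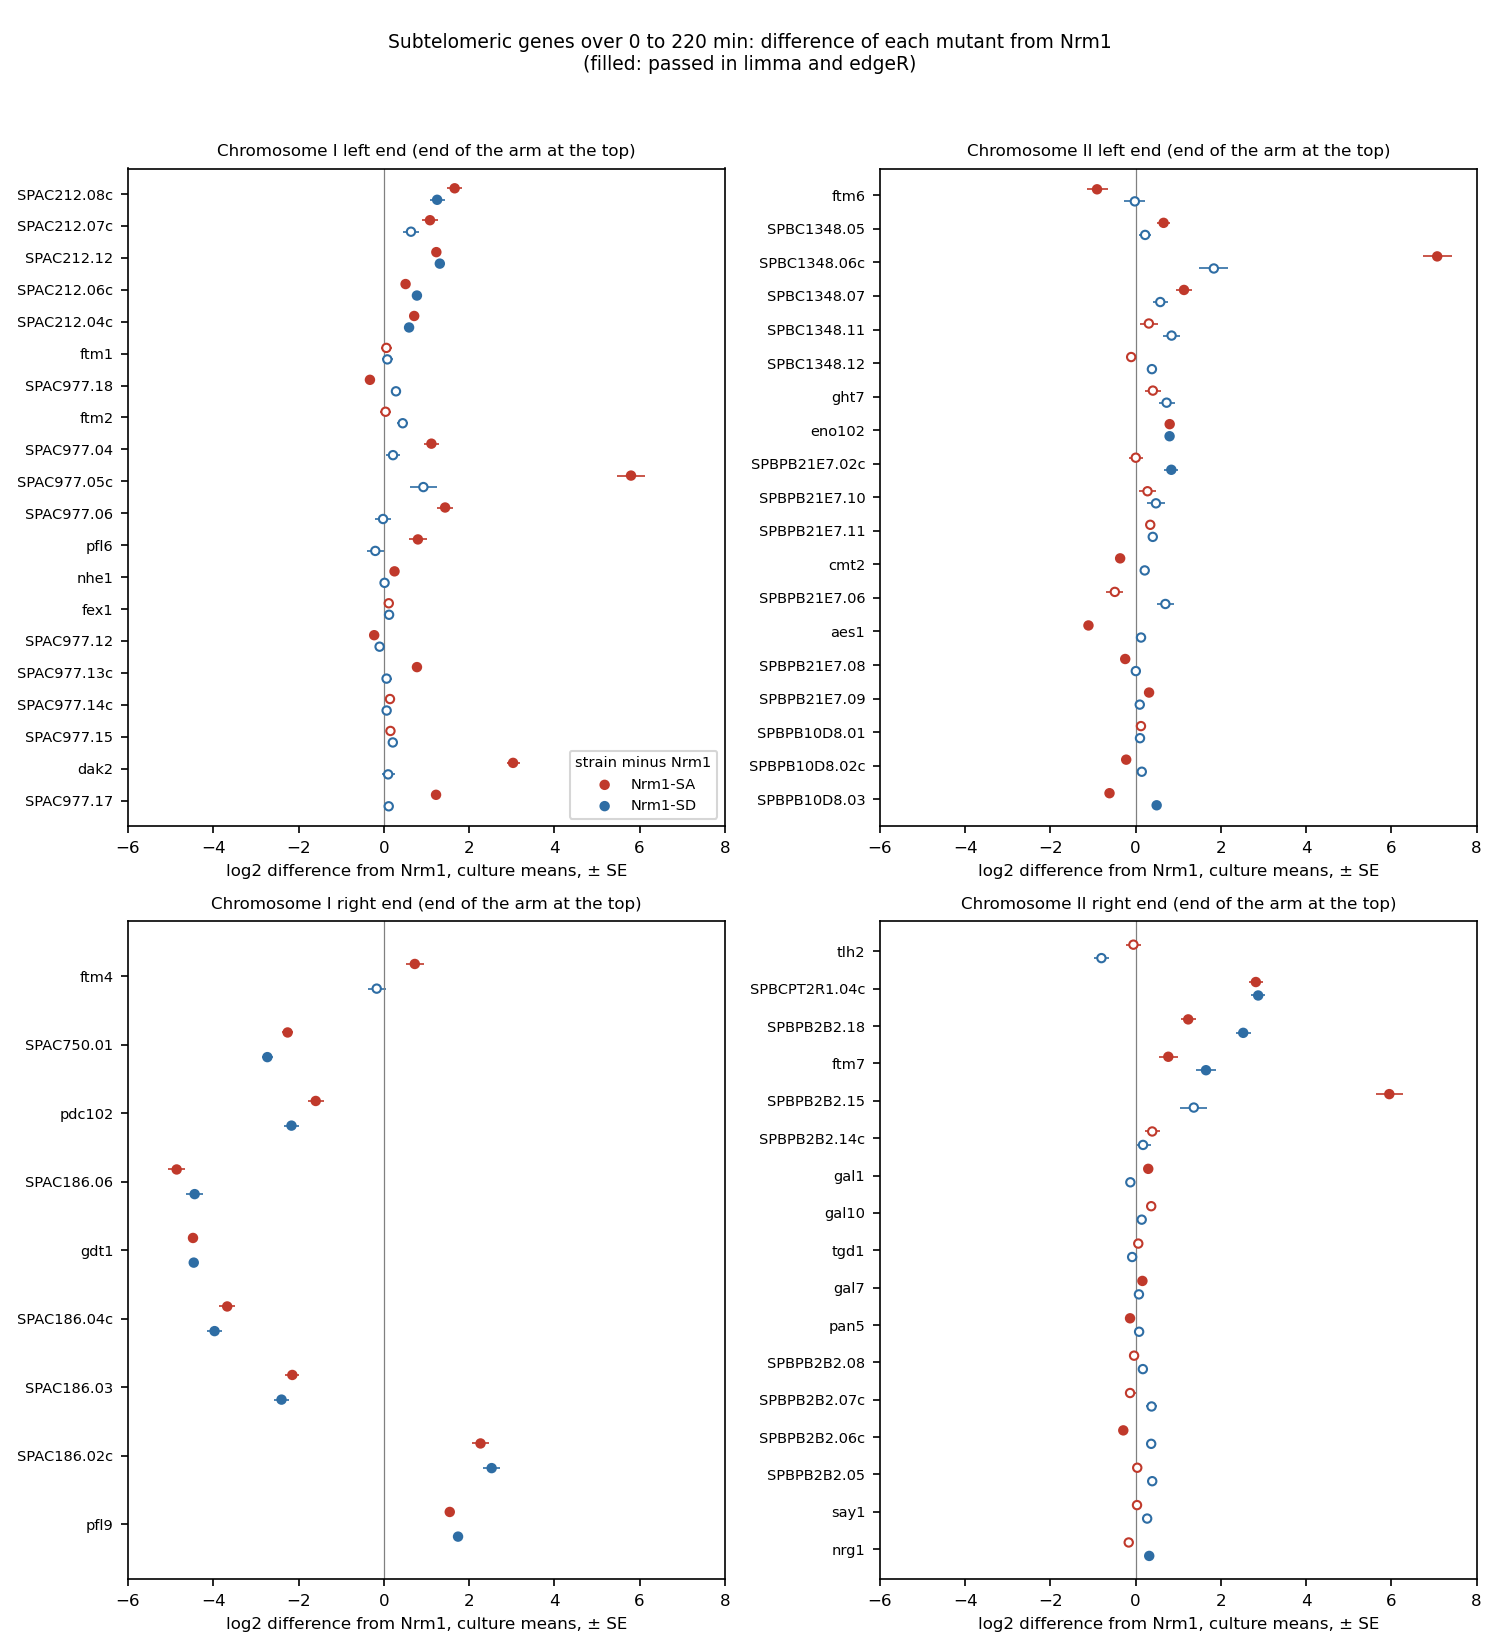
Time course log2 difference from Nrm1 with its standard error (x axis) for each member in order along the 4 arms, with the chromosome end at the top, for Nrm1-SA (red) and Nrm1-SD (blue). Filled points passed limma and edgeR, and the right end of chromosome I holds a run of 6 members below 0 in both strains.

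In Nrm1-SA the largest differences from Nrm1, asynchronously and over the time course, belonged to 3 copies of a gene for a Vel1p domain protein, SPAC977.05c on the left end of chromosome I, SPBC1348.06c on the left end of chromosome II and SPBPB2B2.15 on its right end. The budding yeast gene VEL1, after which the domain is named, is known as a gene induced in zinc-depleted cells, and no role is annotated for the fission yeast proteins. In the genome assembly ASM294v3, SPBC1348.06c and SPBPB2B2.15 are identical over all 612 bases, and SPAC977.05c, annotated with 3 more bases at its start, is 99.35% identical to them. Counted from the first base of SPBC1348.06c, with the base of SPBC1348.06c given first, SPAC977.05c differs by G3T, T20C, C27T and C578T. Positions 5 to 42 of this alignment, which lie in the coding part of the genes, are shown because they hold a pair of the differences, in capitals at positions 20 and 27. Reads over a difference can tell SPAC977.05c from the other copies. No read that lies wholly within the 612 bases can tell SPBC1348.06c from SPBPB2B2.15, and reads reaching into the flanks were not examined. In the Nrm1-SA time course these copies held 24.1% and 20.2% of the summed signal. The printed stretches come from the minus strand of chrI:36338-36375 for SPAC977.05c, the minus strand of chrII:16551-16588 for SPBC1348.06c and the plus strand of chrII:4496377-4496414 for SPBPB2B2.15.
SPAC977.05c: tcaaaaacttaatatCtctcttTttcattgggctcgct
SPBC1348.06c: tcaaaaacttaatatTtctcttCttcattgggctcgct
SPBPB2B2.15: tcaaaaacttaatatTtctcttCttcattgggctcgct

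Asynchronous SPAC977.05c had 1262 and 1094 normalised counts in Nrm1-SA, 1.86 and 6.62 in Nrm1-SD, and 3.42 and 2.34 in Nrm1. SPBC1348.06c had 542.8 and 413.7 in Nrm1-SA, 0 and 3.31 in Nrm1-SD, and 1.71 and 0 in Nrm1. SPBPB2B2.15 had 344.6 and 287.3 in Nrm1-SA, 0 in both Nrm1-SD libraries, and 0.855 and 4.68 in Nrm1. Each copy was thus high in Nrm1-SA only, with no overlap with either other strain, and for SPAC977.05c the log2 difference from Nrm1 was 8.26 ± 0.62 (SE; limma adjusted p = 2.31e-15). Asynchronous libraries of Nrm1-SA and Nrm1 did not overlap for 44.2% of all features. With the 3 copies summed, which removes the question of how reads were divided between them, the difference was 8.04 ± 0.68 (limma adjusted p = 1.34e-13).

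Over the time course the lowest, median and highest library of SPAC977.05c stood at 817.9, 2223 and 2744 in Nrm1-SA, 3.68, 63.5 and 366.3 in Nrm1-SD, and 0.524, 48.9 and 343.0 in Nrm1. The Nrm1-SA libraries lay above every library of the other strains, whereas Nrm1-SD and Nrm1 overlapped. The values for SPBC1348.06c were 266.5, 956.2 and 1282 in Nrm1-SA, 0, 21.2 and 131.9 in Nrm1-SD, and 0, 6.25 and 69.0 in Nrm1, and those for SPBPB2B2.15 were 264.1, 824.4 and 994.3 in Nrm1-SA, 0.921, 31.3 and 139.3 in Nrm1-SD, and 0, 12.8 and 65.9 in Nrm1. Again no library of Nrm1-SA reached down to those of the other strains. Their log2 differences in Nrm1-SA were 5.80 ± 0.32, 7.07 ± 0.34 and 5.95 ± 0.32 in the order given (limma adjusted p = 1.14e-07, 4.26e-08 and 9.71e-08), and the culture means were 28.6, 87.8 and 46.3 times those of Nrm1.

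In Nrm1-SD the time course differences were smaller and less certain. The value was 0.93 for SPAC977.05c (limma adjusted p = 0.301), 1.83 for SPBC1348.06c (limma adjusted p = 0.0159, edgeR adjusted p = 0.226) and 1.36 for SPBPB2B2.15 (limma adjusted p = 0.0676, edgeR adjusted p = 0.241). Summed, the copies differed by 1.18 (limma adjusted p = 0.175). The 2 Nrm1-SD cultures stood apart from each other, at means of 62.2 and 163.7 for SPAC977.05c. Set against each other, Nrm1-SD was below Nrm1-SA by 4.87, 5.24 and 4.59 on the log2 scale for the 3 genes.

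The copies also moved with time. Nrm1 cells had 0.524 and 1.75 counts of SPAC977.05c at 0 min and 210.4 and 343.0 at 220 min, and Nrm1-SD cells had 3.68 and 7.50 at 0 min and 209.9 and 365.2 at 220 min. In Nrm1-SA the gene was already at 1154 and 847.0 at 0 min and stood at 2614 and 2358 at 220 min. The change over time differed between Nrm1-SA and Nrm1 (strain by time term, limma adjusted p = 2.82e-05). At 220 min the Nrm1 libraries of all 3 genes were still below the lowest Nrm1-SA library of the time course, as the plot of the Vel1p genes shows.

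**Figure D3:**
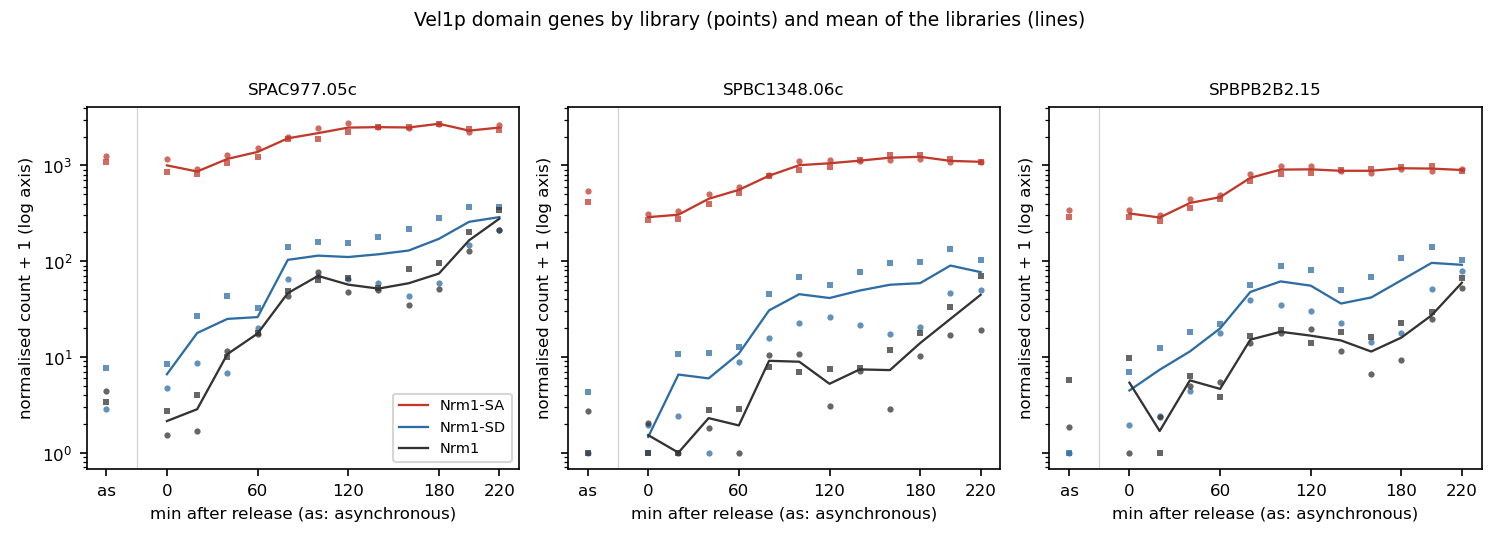
Normalised count plus 1 (y axis, log scale) of the 3 Vel1p domain genes in asynchronous cells (as) and from 0 to 220 min (x axis) in Nrm1-SA, Nrm1-SD and Nrm1, with circles for replicate 1, squares for replicate 2 and lines for means. Nrm1-SA lies above the other strains throughout, with 817.9 as its lowest time course value for SPAC977.05c.

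The copies were compared upstream as well, because they moved together. A stretch of 42 bases is identical upstream of all 3, with its inner motifs 125 bases before SPAC977.05c and 129 bases before the other genes. It lies at chrI:36496-36537 (minus strand) for SPAC977.05c, chrII:16710-16751 (minus strand) for SPBC1348.06c and chrII:4496214-4496255 (plus strand) for SPBPB2B2.15. The capitals mark a match to CGNCGATC and, on the opposite strand, a match to CGNAGATC (here CGTAGATC, which reads GATCTACG as printed), both forms of the core of the element bound by the zinc-responsive repressor Loz1.
upstream of the Vel1p genes: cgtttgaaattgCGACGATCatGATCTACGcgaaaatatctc
On either strand of the 250 bases before 5112 genes, CGNCGATC was found upstream of 43 genes (0.841%) and CGNAGATC upstream of 40 (0.783%). Both were found upstream of 5 genes (0.0978%), 3 of them the Vel1p genes. The complete Loz1 response element, matched with its flanking letters, was found upstream of 18 genes (0.352%) and of 0 of the 59 protein-coding members. A match is a run of letters and not evidence of binding.

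Genes of the zinc response were examined as a list of 7. In Nrm1-SA, 5 were higher and 1 lower over the time course, all 6 by limma and edgeR, against 16.7%, 16.3% and 26.5% of all features. In Nrm1-SD 0 of the 7 passed limma or edgeR, with 1 at an unadjusted p under 0.05 by either tool and a largest absolute difference of 0.187. The largest values were those of adh1, which encodes a zinc-requiring alcohol dehydrogenase and was lower in Nrm1-SA by 4.58 on the log2 scale, its antisense transcript adh1AS, which was higher by 4.50, and adh4, the alternative alcohol dehydrogenase, which was higher by 4.04. The median of the list was 0.858 in Nrm1-SA and −0.034 in Nrm1-SD. Whether these genes have a part in the Vel1p result was not tested.

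At the right end of chromosome I, a run of neighbouring genes was lower in both mutants. From SPAC186.03 to the non-coding SPNCRNA.4500 lie 12 features, 9 of which had enough reads to be tested. All 9 had lower time course levels in Nrm1-SA by both tools, and all 9 in Nrm1-SD, each set against the same Nrm1 libraries. The limits of the run were set with these values known, so that the counts within it describe it and are not a test. In asynchronous cells limma called 6 lower in Nrm1-SA, against 3.44% of all features, and 7 lower in Nrm1-SD, against 0.709%. Of these, edgeR did not call the non-coding SPNCRNA.1704 in Nrm1-SA or Nrm1-SD (adjusted p = 0.18 and 0.324) or SPNCRNA.61 in Nrm1-SD (adjusted p = 0.27). The 3 features on the centromere side of the run, pfl9, SPAC186.02c and SPNCRNA.4497, had higher time course levels in each mutant by both tools. Of the 18 features between the run and the end of the chromosome only 2 could be tested. By limma both had higher time course levels in Nrm1-SA, and 1 of them in Nrm1-SD.

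Within the run, gdt1 (SPAC186.05c) is a gene of wholly unique sequence whose budding yeast relative acts in calcium and manganese transport. Asynchronous libraries had 17.0 and 26.3 counts in Nrm1-SA, 16.8 and 11.6 in Nrm1-SD, and 580.5 and 495.9 in Nrm1. The time course libraries spanned 9.81 to 55.3 with a median of 33.7 in Nrm1-SA, 10.5 to 65.5 with a median of 36.2 in Nrm1-SD, and 423.7 to 1133 with a median of 741.0 in Nrm1. Neither mutant overlapped Nrm1 in any library. Over the 65 members, the time course libraries did not overlap with those of Nrm1 for 7 genes in Nrm1-SA and 5 in Nrm1-SD, against 0.217% and 0.177% of all features. The difference of gdt1 was −4.48 ± 0.07 in Nrm1-SA and −4.46 ± 0.07 in Nrm1-SD (limma adjusted p = 2.5e-13 and 5.25e-13), the Nrm1 mean being 22.1 times that of Nrm1-SA and 21.8 times that of Nrm1-SD. Between the mutants it was 0.02 ± 0.07 (limma adjusted p = 0.885).

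The neighbours of gdt1 were low in the same strains. SPAC186.06, annotated as an isomerase, had 1.06 and 6.07 counts in asynchronous Nrm1-SA, 5.59 and 3.31 in Nrm1-SD, and 118.8 and 131.0 in Nrm1. Its time course differences were −4.86 ± 0.19 in Nrm1-SA and −4.44 ± 0.19 in Nrm1-SD. No Nrm1-SA or Nrm1-SD library of the time course exceeded 7.91, and no Nrm1 library was under 19.4. SPAC186.04c, of unknown function, had 7.42 and 10.1 counts in asynchronous Nrm1-SA, 6.52 and 4.97 in Nrm1-SD, and 202.6 and 98.2 in Nrm1, with time course differences of −3.67 ± 0.18 and −3.97 ± 0.18. Both genes were thus low in all asynchronous libraries of either mutant and high in those of Nrm1.

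SPAC186.03, an L-asparaginase gene, had 1.06 and 1.01 counts in asynchronous Nrm1-SA, 0 in both Nrm1-SD libraries, and 29.1 and 23.4 in Nrm1, which puts it at least 13.5-fold lower in Nrm1-SD by a floor of 3 reads over the group. In Nrm1 it varied with time, at 0 in both libraries at 60 min and at 73.3 and 45.8 at 120 min, whereas the values at 120 min were 8.45 and 5.25 in Nrm1-SA and 1.92 and 4.62 in Nrm1-SD. Its time course differences were −2.15 ± 0.17 and −2.40 ± 0.17. It is 96.28% identical to SPBPB21E7.09 at the left end of chromosome II, the more abundant copy, with medians of 286.5 in Nrm1-SA, 222.4 in Nrm1-SD and 220.2 in Nrm1, and the summed copies differed by 0.18 in Nrm1-SA. Over the time course the lower level was thus seen in the reads assigned to SPAC186.03 and not in the sum. SPAC186.03 held 11.5% of the summed signal in Nrm1, so the sum cannot decide on its call. In asynchronous Nrm1-SA the sum differed from Nrm1 by −0.377 ± 0.127 (limma adjusted p = 0.0605). The pyruvate decarboxylase gene pdc102 (SPAC186.09) had time course differences of −1.60 ± 0.18 and −2.17 ± 0.18, and the aldo/keto reductase gene SPAC750.01 of −2.26 ± 0.12 and −2.73 ± 0.12. For these last genes Nrm1-SD was also below Nrm1-SA, by 0.57 (limma adjusted p = 0.0412) and 0.48 (limma adjusted p = 0.0131). Each overlaps a non-coding gene on the other strand, prl107 for pdc102 and SPNCRNA.4500 for SPAC750.01, and whether the counting used strand is not given in the sources used here, so the partners cannot be told apart. SPAC186.07c and SPAC186.08c, too low to be members, had 13 and 30 reads over the Nrm1-SA time course, 11 and 11 in Nrm1-SD, and 94 and 78 in Nrm1.

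**Figure D4:**
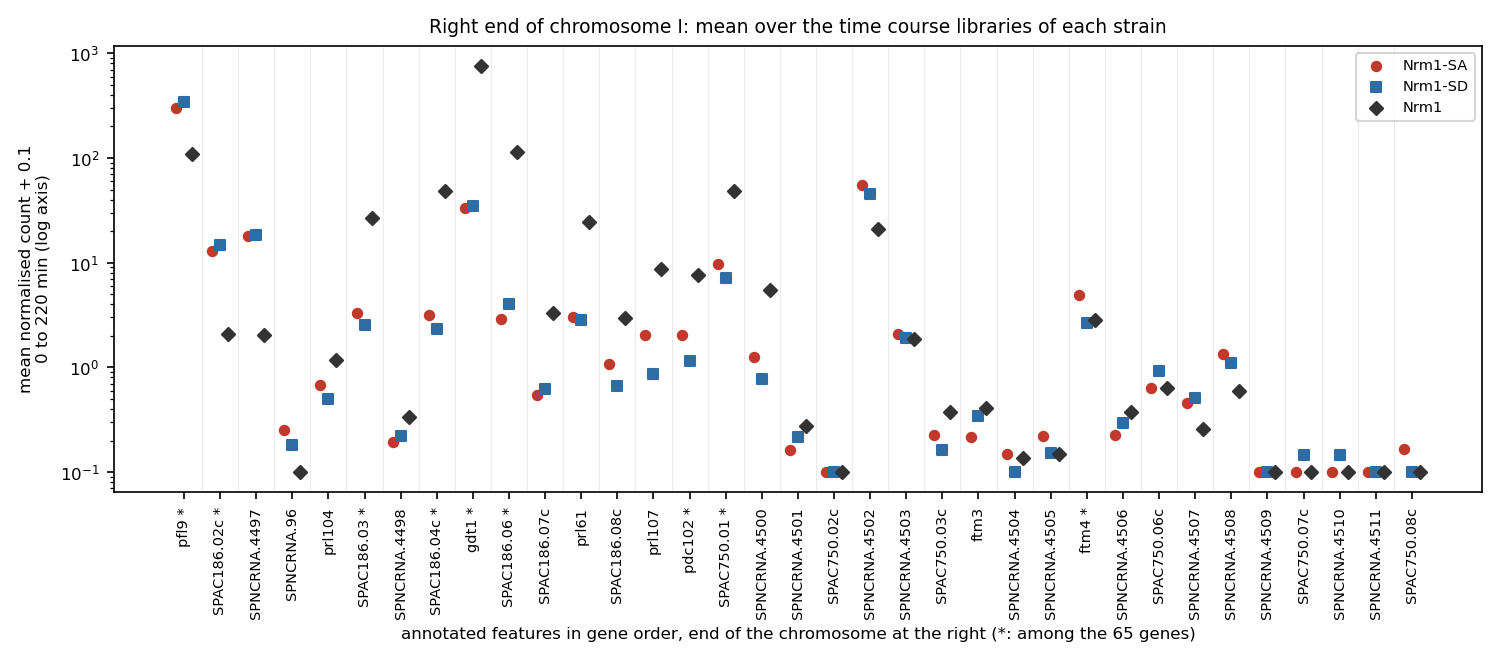
Mean normalised count over the time course plus 0.1 (y axis, log scale) for the features at the right end of chromosome I in gene order (x axis, chromosome end at the right, members marked with an asterisk) in Nrm1-SA, Nrm1-SD and Nrm1. From SPAC186.03 to SPNCRNA.4500 both mutants lie below Nrm1, and pfl9, SPAC186.02c and SPNCRNA.4497 lie above it.

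On the other side of the boundary, pfl9 (SPAC186.01) encodes a cell surface glycoprotein of the DIPSY family, whose members include flocculins. In asynchronous cells it had 569.3 and 286.3 counts in Nrm1-SA, 149.0 and 142.4 in Nrm1-SD, and 35.9 and 28.1 in Nrm1, with differences of 3.63 ± 0.20 and 2.16 ± 0.20 (limma adjusted p = 8.93e-21 and 6.61e-12). Both mutants lay above Nrm1 with no overlap. Over the time course the lowest, median and highest library were 203.8, 285.2 and 463.8 in Nrm1-SA, 199.7, 340.4 and 498.9 in Nrm1-SD, and 48.1, 94.0 and 217.3 in Nrm1, so that the ranges met only where Nrm1 was at its highest. In Nrm1 the mean was highest at 80 min, at 216.7, and its change over time differed from that in either mutant. At 160 min the libraries stood at 259.8 and 262.1 in Nrm1-SA, 324.8 and 272.2 in Nrm1-SD, and 64.4 and 48.1 in Nrm1.

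SPAC186.02c, a hydroxyacid dehydrogenase gene next to pfl9, had 11.7 and 11.1 counts in asynchronous Nrm1-SA, 2.79 and 6.62 in Nrm1-SD, and 0 in both Nrm1 libraries, at least 4.76-fold higher in Nrm1-SA and 1.97-fold in Nrm1-SD by the same floor. Its call in asynchronous Nrm1-SD was made by limma alone (adjusted p = 0.0231, edgeR adjusted p = 0.455). Over the time course it was higher by 2.27 ± 0.20 in Nrm1-SA and 2.53 ± 0.20 in Nrm1-SD. SPNCRNA.4497 overlaps it on the other strand, so here too the partners cannot be told apart.

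At the other ends, several genes with few unique stretches were higher in both mutants. SPBCPT2R1.04c on the right end of chromosome II, of unknown function and with 13.3% unique stretches, had 18.0 and 14.2 counts in asynchronous Nrm1-SA, 15.8 and 16.6 in Nrm1-SD, and 1.71 and 0 in Nrm1. The time course libraries spanned 6.74 to 23.4 with a median of 12.7 in Nrm1-SA, 5.25 to 41.5 with a median of 12.3 in Nrm1-SD, and 0 to 3.00 with a median of 0.893 in Nrm1, without overlap. The differences were 2.82 ± 0.16 and 2.87 ± 0.16 (limma adjusted p = 1.27e-07 and 2.27e-07), and 0.06 ± 0.16 between the mutants.

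Within the SPAC212 block at the left end of chromosome I, SPAC212.12, a gene for a GPI-anchored protein with no unique stretch, had time course medians of 61.3 in Nrm1-SA, 62.6 in Nrm1-SD and 23.4 in Nrm1. Its libraries overlapped between strains, and the differences were 1.23 ± 0.10 and 1.31 ± 0.10 (limma adjusted p = 4.17e-06 and 6.75e-06). SPAC212.08c, which also encodes a GPI-anchored protein, was higher by 1.66 ± 0.17 and 1.25 ± 0.17, and these copies summed gave 1.35 ± 0.11 and 1.32 ± 0.11. The helicase-like gene SPAC212.06c was higher by 0.51 and 0.78, and SPAC212.04c, of unknown function, by 0.71 and 0.59. All 4 passed both tools in each contrast. The pseudogene SPAC212.07c, wholly unique, was called by both tools in Nrm1-SA, with a time course median of 4.09, and in Nrm1-SD, with 3.04, by edgeR alone (adjusted p = 0.0505, limma adjusted p = 0.199).

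The helicase gene tlh2 (SPBCPT2R1.08c) had time course medians of 5.41 in Nrm1-SA, 2.90 in Nrm1-SD and 5.01 in Nrm1. Its difference from Nrm1 was −0.05 in Nrm1-SA (limma adjusted p = 0.87) and −0.80 in Nrm1-SD, where limma called it (adjusted p = 0.0515) and edgeR did not (adjusted p = 0.142). The ftm genes, which encode proteins with transmembrane helices, include near-identical copies, so their single values depend on how reads were divided. Of ftm2, ftm6 and ftm7, the values in Nrm1-SA were 0.04 (limma adjusted p = 0.864), −0.91 (0.0173) and 0.77 (0.0272), and the 3 genes summed gave −0.03 ± 0.12 (limma adjusted p = 0.916). In Nrm1-SD the same genes were at 0.44, −0.02 and 1.65, of which only ftm7 was called, and the sum was higher by 0.58 ± 0.12 (limma adjusted p = 0.0384). For ftm4 and its copy ftm1 the values in Nrm1-SA were 0.73 (limma adjusted p = 0.0259) and 0.06 (0.78), and the sum was 0.21 ± 0.12 (limma adjusted p = 0.203), with 0.05 ± 0.12 in Nrm1-SD (0.929). No call of a single ftm gene in Nrm1-SA was thus kept in the sums. In that time course ftm2 held 82.8% of its sum and ftm1 74.7%, so the sums cannot decide on the calls of their copies.

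Several genes of carbon metabolism differed in Nrm1-SA. The dihydroxyacetone kinase gene dak2 (SPAC977.16c), which acts in glycerol use, had 8900 and 9502 counts in asynchronous Nrm1-SA, 3456 and 4026 in Nrm1-SD, and 6259 and 2875 in Nrm1. Over the time course its lowest, median and highest library were 387.8, 3574 and 5098 in Nrm1-SA, 70.0, 365.3 and 776.3 in Nrm1-SD, and 61.9, 322.9 and 585.6 in Nrm1. Nrm1-SA thus overlapped the other strains only at its low end, whereas Nrm1-SD and Nrm1 covered nearly the same range. The time course difference was 3.03 ± 0.15 in Nrm1-SA (limma adjusted p = 4.97e-08), 0.10 ± 0.15 in Nrm1-SD (limma adjusted p = 0.876) and −2.93 ± 0.15 between Nrm1-SD and Nrm1-SA.

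SPAC977.17, the neighbour of dak2, encodes a member of the MIP family of water and glycerol channels. Its time course medians were 390.1 in Nrm1-SA, 222.2 in Nrm1-SD and 194.0 in Nrm1, and the difference was 1.23 ± 0.04 in Nrm1-SA (limma adjusted p = 3.04e-09) and 0.12 ± 0.04 in Nrm1-SD (limma adjusted p = 0.378). The strains were closer at 60 min (486.8 and 451.5 in Nrm1-SA, 337.3 and 341.1 in Nrm1-SD, 310.0 and 284.3 in Nrm1) than at 140 min, where Nrm1-SA had 397.2 and 373.3, Nrm1-SD 73.4 and 84.8, and Nrm1 84.2 and 74.0. The enolase gene eno102 (SPBPB21E7.01c), of glycolysis, had 488.8 and 721.2 counts in asynchronous Nrm1-SA, 308.3 and 612.7 in Nrm1-SD, and 268.4 and 107.6 in Nrm1, and was higher by 0.80 ± 0.10 over both time courses. The galactose genes gal1 (galactokinase), gal10 (epimerase) and gal7 (uridylyltransferase) were higher in Nrm1-SA by 0.30, 0.36 and 0.16, of which edgeR did not call gal10 (adjusted p = 0.746), and none was called in Nrm1-SD.

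Other genes were lower in Nrm1-SA or went opposite ways in the mutants. Lower in Nrm1-SA was aes1 (SPBPB21E7.07), of the phenazine biosynthesis family, whose time course libraries spanned 555.3 to 1695 in Nrm1-SA, 1693 to 4419 in Nrm1-SD, and 1607 to 4684 in Nrm1. Nrm1-SA met the other strains only at its top, with a difference of −1.11 ± 0.07 (limma adjusted p = 2.5e-07), against 0.13 ± 0.07 in Nrm1-SD (limma adjusted p = 0.572). The arylsulfatase gene SPBPB10D8.02c had 393.3 and 456.2 counts in asynchronous Nrm1-SA, 943.5 and 993.6 in Nrm1-SD, and 608.7 and 673.7 in Nrm1. With Nrm1 between the mutants, the differences were −0.59 ± 0.10 and 0.60 ± 0.10, and 1.19 ± 0.10 between Nrm1-SD and Nrm1-SA (limma adjusted p = 8.01e-14). The neighbouring pseudogene SPBPB10D8.03 showed the same order over the time course, at −0.61 ± 0.09 and 0.49 ± 0.09, and 1.11 ± 0.09 between the mutants. SPBPB21E7.06, also a pseudogene, was called between the mutants (1.19 ± 0.20, limma adjusted p = 0.00092), while its differences from Nrm1 of −0.49 and 0.70 were called by limma in Nrm1-SA only (adjusted p = 0.0911 and 0.168).

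Several members act in transport. The sodium/proton antiporter gene nhe1 (SPAC977.10), which confers sodium tolerance, had time course medians of 753.9 in Nrm1-SA, 669.4 in Nrm1-SD and 655.8 in Nrm1, with differences of 0.25 ± 0.03 (limma adjusted p = 0.000165) and 0.02 ± 0.03 (limma adjusted p = 0.901). The amino-acid permease gene nrg1 (SPBPB2B2.01) stood at 755.9 in Nrm1-SA, 1015 in Nrm1-SD and 840.1 in Nrm1, and was called between the mutants at 0.48 ± 0.04 (limma adjusted p = 3.62e-06). SPBPB10D8.01, a cysteine transporter gene, was lower in asynchronous Nrm1-SA by 0.49 ± 0.10 (limma adjusted p = 0.000433), with 0.25 ± 0.10 in Nrm1-SD (limma adjusted p = 0.242). Over the time course limma called it in Nrm1-SA and not in Nrm1-SD. There its mean in Nrm1-SA was below Nrm1 at 0 min (700.2 against 1075.8) and above it at 160 min (1290.2 against 945.5). SPBC1348.05, annotated as a transporter, has 4.33% unique stretches. Over the time course it was higher in Nrm1-SA by 0.66 ± 0.15 (limma adjusted p = 0.00564), with 0.22 ± 0.15 in Nrm1-SD (limma adjusted p = 0.659). For the fluoride export gene fex1 the time course difference was 0.12 ± 0.10 in either mutant (limma adjusted p = 0.447 and 0.749). For the hexose transporter gene ght7 it was 0.40 ± 0.19 in Nrm1-SA and 0.73 ± 0.19 in Nrm1-SD (limma adjusted p = 0.143 and 0.114). Neither was called over the time course. In asynchronous cells limma called fex1 in Nrm1-SD, with a mean of 39.5 against 15.5 in Nrm1. The transcription factor gene SPBC1348.12 was called over the time course in Nrm1-SD by limma at 0.38 ± 0.08 (adjusted p = 0.0435) and not by edgeR (adjusted p = 0.523).

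Some calls rested on few reads. SPAC977.06, of unknown function, had time course medians of 9.74 in Nrm1-SA, 3.94 in Nrm1-SD and 3.17 in Nrm1, a difference of 1.44 ± 0.18 in Nrm1-SA. SPBC1348.07 had medians of 3.94, 2.57 and 0.892 in the same order of strains, with 1.13 ± 0.18 in Nrm1-SA, and the 2 genes summed with their copy SPBPB2B2.14c gave 1.06 ± 0.12 (limma adjusted p = 4.61e-05). SPBPB2B2.18, which is 98.11% identical to SPAC977.18, was higher by 1.23 ± 0.18 in Nrm1-SA and 2.52 ± 0.18 in Nrm1-SD. Its medians were 9.71, 20.8 and 3.67. Its copy was far more abundant, and the 2 genes summed gave −0.28 in Nrm1-SA, the opposite sign.

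In asynchronous cells 22 subtelomeric genes were higher and 11 lower in Nrm1-SA than in Nrm1, 25 of the 33 by both tools. Over all features 6.92% were higher, 3.44% lower and 5.55% passed both tools. In simulated counts with 200 changed features, 37.3% of the limma calls in this contrast were false at the same threshold. The share was 13.5% for edgeR and 8.33% for calls by both tools. Asynchronous calls by limma alone are thus less certain than the threshold states. The median was 0.508 over the members (0.39 with the genes that had no reads in one group put at their bound) and 0.053 over all features. In Nrm1-SD 13 were higher and 5 lower, 13 of the 18 by both tools, against 1.32% higher, 0.709% lower and 0.473% by both tools, with medians of 0.181 (0.111 at the bound) and 0.013. Between the mutants 8 were higher and 10 lower in Nrm1-SD, 14 by both tools, against 2.30%, 3.87% and 4.25% of all features. The asynchronous libraries did not overlap with those of Nrm1 for 42 members in Nrm1-SA and 29 in Nrm1-SD, against 44.2% and 34.1% of all features. These counts depended on single libraries. Without replicate 2 of Nrm1 the 33 calls of Nrm1-SA became 17, without replicate 2 of Nrm1-SA they became 21, and without replicate 2 of Nrm1-SD the 18 calls of that strain became 10.

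Cells at 0 min had been held at 36 °C for 4 h, so that the arrest and the heat cannot be told apart. Of 8 heat shock genes, 4 were higher and 2 lower at 0 min than in asynchronous cells in Nrm1-SA, 6 and 1 in Nrm1-SD, and 6 and 1 in Nrm1. Their summed level in Nrm1 was 104400 and 109900 asynchronously, 139300 and 147000 at 0 min, and 47340 as the time course median. Asynchronous cells were thus not a low baseline for the sum of these genes. At 0 min 20 members were higher and 20 lower than in asynchronous cells in Nrm1-SA (37 by both tools), against 21.8%, 21.9% and 41.7% of all features. The counts were 30 and 11 in Nrm1-SD (34 by both tools), against 26.2%, 22.7% and 44.7%, and 23 and 14 in Nrm1 (31 by both tools), against 27.2%, 22.2% and 43.6%. SPBPB2B2.06c, a phosphoprotein phosphatase gene, had 5373 and 5295 counts at 0 min and 328.7 and 468.4 asynchronously in Nrm1-SA, 11042 and 10049 at 0 min and 326.9 and 453.8 asynchronously in Nrm1-SD, and 7855 and 8652 at 0 min and 215.4 and 231.6 asynchronously in Nrm1. The libraries at 0 min were above the asynchronous ones in every strain, by 3.76, 4.77 and 5.20 on the log2 scale. SPBPB2B2.05, of the glutamine amidotransferase family, was higher at 0 min by 5.58 in Nrm1-SA, 4.99 in Nrm1-SD and 5.48 in Nrm1, and the sterol deacetylase gene say1 by 2.38, 2.52 and 3.08. Lower at 0 min were dak2 (−4.25, −5.07 and −5.84), SPAC977.17 (−2.70, −2.47 and −2.51), eno102 (−3.93, −2.74 and −2.73) and the L-asparaginase gene SPBPB21E7.09 (−2.24, −2.29 and −2.44). In Nrm1 their asynchronous means lay above those of every time point, so the lower level was not particular to 0 min. These means were 4567, 690.3, 188.0 and 1082 in the order given. The highest means of the Nrm1 time course were 575.5, 326.8, 94.4 and 263.7.

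The 0 min difference from asynchronous cells differed from that in Nrm1 for 10 members in Nrm1-SA (1 higher and 9 lower), 8 of them by both tools, against 0.364% higher, 1.76% lower and 1.04% by both tools over all features. SPBPB2B2.06c rose less, with a gap of −1.44 between the strains (limma adjusted p = 5.98e-08). For pfl9 the 0 min difference was −0.91 in Nrm1-SA, 1.36 in Nrm1-SD and 1.18 in Nrm1. In Nrm1-SD 1 member was called by limma, SPAC186.03, and none by edgeR, with 11 members at an unadjusted p under 0.05 by limma and 8 by edgeR. Over all features 0.256% were higher, 0.493% lower and 0.227% passed both tools.

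Changes with time were common among all features, and the counts of members are read against that. The test over 0 to 220 min called 47 members in Nrm1-SA (45 by both tools), 56 in Nrm1-SD (51) and 60 in Nrm1 (55), against 68.3%, 80.9% and 73.6% of all features by limma and 67.5%, 75.9% and 72.9% by both tools. Of the members called by both tools, the mean was highest between 80 and 120 min for 17 in Nrm1-SA, 18 in Nrm1-SD and 24 in Nrm1, and at 0 min for 8, 14 and 10. The times of the highest mean were not counted over all features, so these counts do not set the members apart. SPAC977.18, of unknown function, had 10.8 and 36.0 counts at 0 min and 644.7 and 657.2 at 100 min in Nrm1-SA, 3.68 and 16.5 at 0 min and 1129 and 1073 at 100 min in Nrm1-SD, and 6.29 and 7.00 at 0 min and 967.7 and 1115 at 100 min in Nrm1. The catechol O-methyltransferase gene cmt2 (SPBPB21E7.04c) stood at 920.8 and 968.9 at 100 min in Nrm1-SA, 1287 and 1321 in Nrm1-SD, and 1306 and 1548 in Nrm1, with at most 129.9 at 0 min in any strain. In both genes Nrm1-SA was below the other strains at 100 min, and over the time course by 0.32 and 0.36 relative to Nrm1.

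The course differed between Nrm1-SA and Nrm1 for 24 members, all by limma and edgeR, against 9.20% of all features by limma and 9.04% by both tools. Between Nrm1-SD and Nrm1 it differed for 3, again by both tools, against 1.96% and 1.68%. For Nrm1-SA the arylsulfatase gene SPBPB10D8.02c had an adjusted p of 1.21e-15 by limma. SPBPB2B2.08, of unknown function, had 449.7 and 428.9 counts at 60 min and 136.5 and 129.5 at 160 min in Nrm1-SA, 573.5 and 627.6 at 60 min and 95.8 and 91.8 at 160 min in Nrm1-SD, and 646.2 and 828.8 at 60 min and 54.2 and 59.7 at 160 min in Nrm1. Its swing was thus narrower in Nrm1-SA (strain by time term, limma adjusted p = 1.16e-08) and was not called in Nrm1-SD by limma (adjusted p = 0.129). The 3 members called in Nrm1-SD were pfl9, SPAC186.03 and SPBPB2B2.05. These tests take the 2 libraries of each time as independent of those at other times. If libraries with the same replicate number came from 1 culture, which the labels do not say, the p-values would be too small. Between neighbouring conditions of a strain, correlations by replicate number reached 0.209, and 10 of 34 exceeded 0.1. Between strains 0 of 37 did so. The p-values over time are therefore to be read with caution.

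**Figure D5:**
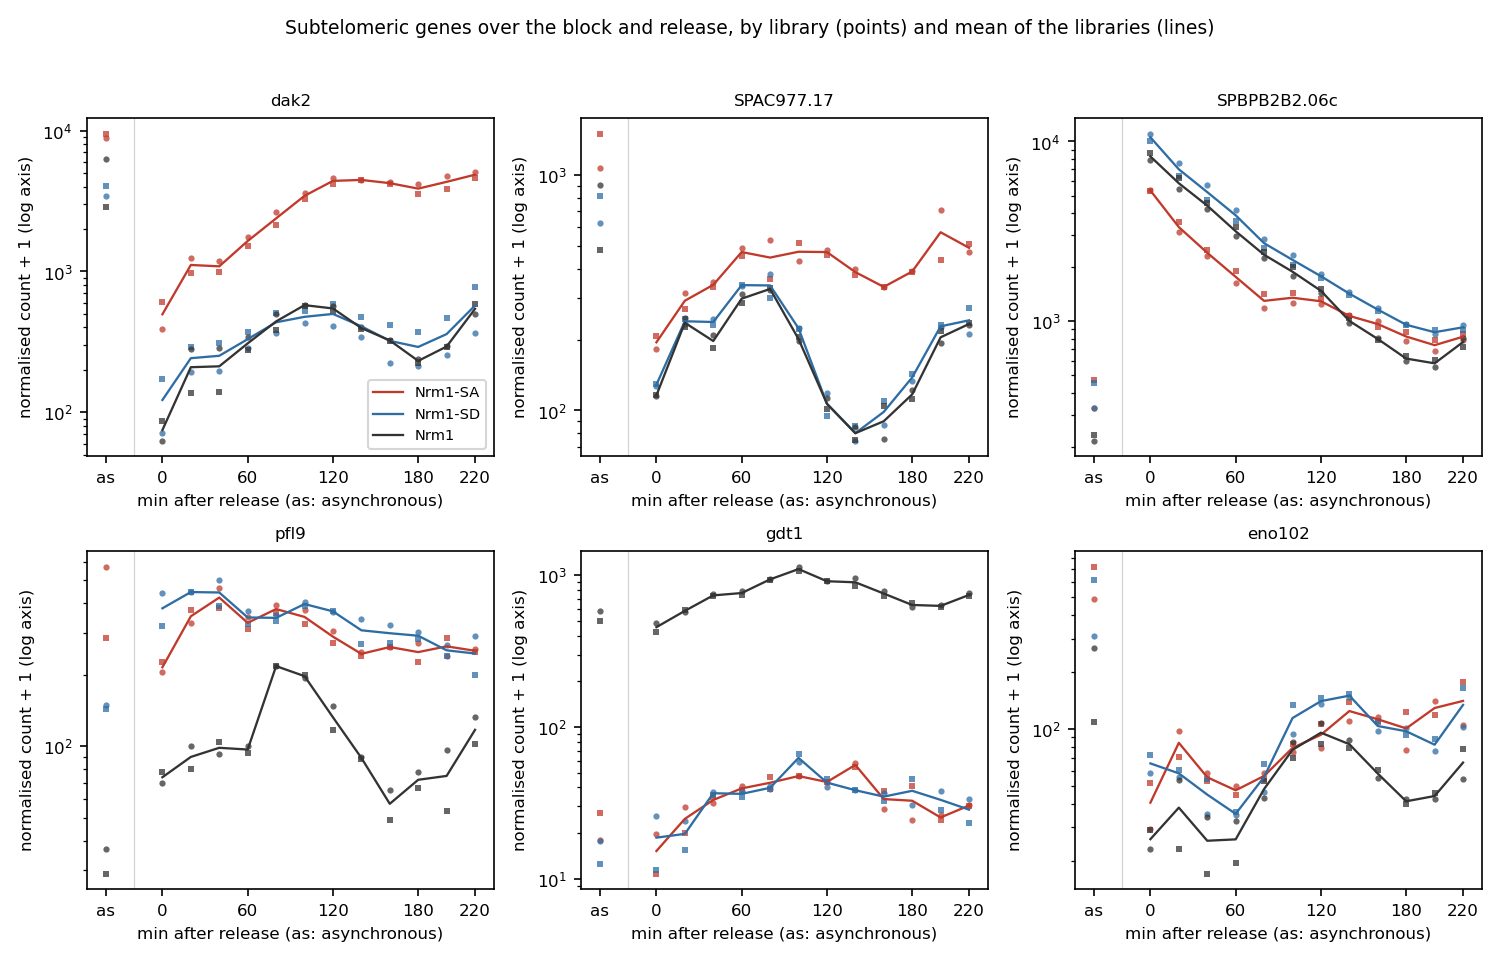
Normalised count plus 1 (y axis, log scale) of dak2, SPAC977.17, SPBPB2B2.06c, pfl9, gdt1 and eno102 in asynchronous cells (as) and from 0 to 220 min (x axis) in Nrm1-SA, Nrm1-SD and Nrm1. Nrm1-SA lies above the other strains for dak2, both mutants lie below Nrm1 for gdt1, and SPBPB2B2.06c is highest at 0 min in each strain.

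The genes that act on these regions, were taken as a list of 42 silencing and telomere factors. At the time course level 11 were higher and 4 lower in Nrm1-SA, 9 by both tools, against 16.7%, 16.3% and 26.5% of all features. The largest absolute difference was 0.186 and the median was 0.022. In Nrm1-SD 1 was higher by limma and 0 by both tools, against 0.867% and 1.18% of all features. There 4 were at an unadjusted p under 0.05 by limma and 4 by edgeR, with a median of 0.004. In asynchronous cells 1 was lower in each mutant by limma, against 3.44% of all features in Nrm1-SA and 0.709% in Nrm1-SD. By both tools 0 passed, against 5.55% and 0.473%. At an unadjusted p under 0.05 there were 6 (limma) and 7 (edgeR) in Nrm1-SA, and 4 and 3 in Nrm1-SD. The transcript level of a factor does not show its activity, and whether these factors had a part in the results was not tested.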

How the data were processed

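RNA was prepared from asynchronous and synchronised cultures of 3 strains and sequenced as polyadenylated, paired-end libraries. According to the study's methods reads were aligned with STAR to the PomBase genome and counted per gene with HTSeq, and the submitters' processing notes name FastQC, Trimmomatic, DESeq2 and the build ASM294v2. The setting of strand and of multiply matching reads is not given in the sources used here. The deposited table holds a signal, counts divided by DESeq2 size factors, and 100.0% of its values returned whole reads within 0.01 reads.

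Groups came from the sample labels. Features with a mean of at least 2 (10152 of 12683) were tested on log2(normalised count + 1) with limma 3.58.1 (trend), in a fit of 39 conditions for asynchronous cells, 0 min and time, and on 6 culture means (libraries of 1 strain and replicate number, taken as 1 culture) for the time course level, at an adjusted p of 0.1. A fold change on that scale understates the change of low genes. edgeR 4.0.16 on the recovered reads was run beside it (2856 features called over the time course in Nrm1-SA, 130 in Nrm1-SD), and DESeq2 1.42.0 as an alternative. An exact two-sided permutation test of 2 against 2 libraries cannot go below 0.333. No label says more of the replicates than their number, so p-values measure the spread between these samples. Sequence was read from ASM294v3 (BLAST 2.17.0 for copies), and no coordinates of the files were used. Library values are given for the 10 members with the largest called differences in each contrast, their near copies and the tlh genes and gdt1. The members and lists were chosen with earlier results of these data known.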

Additional observations from a re-analysis of the deposited data

Results flagged for a closer look

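In each case below a response was set against the same response in Nrm1 and the difference itself was tested. The 0 min minus asynchronous difference differed between Nrm1-SA and Nrm1 for 10 subtelomeric genes by limma, and for 1 gene (SPAC186.03) between Nrm1-SD and Nrm1. The differences between responses in Nrm1-SA passed limma and edgeR for pfl9 at −2.09, SPAC977.14c (an aldo-keto reductase gene) at −0.71, dak2 at 1.60, aes1 at −1.26, the pseudogene SPBPB21E7.08 at −1.29, SPBPB2B2.06c at −1.44, gal10 at −1.15 and gal1 at −1.07, all on the log2 scale. The responses themselves were −4.25 in Nrm1-SA and −5.84 in Nrm1 for dak2, 0.96 and 2.23 for aes1, 0.11 and 1.41 for SPBPB21E7.08, 1.24 and 2.39 for gal10, 0.69 and 1.76 for gal1, and −0.61 and 0.10 for SPAC977.14c. The course over 0 to 220 min differed for 24 members between Nrm1-SA and Nrm1 and for 3 between Nrm1-SD and Nrm1.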

How the results depend on the processing

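Over the named members, 1387 values under alternative settings comprised 1256 on the same side of the threshold in the same direction, 129 no longer past it and 2 of opposite sign, SPAC186.03 and SPBPB2B2.18 summed with their copies in Nrm1-SA over the time course (0.18 and −0.28). The asynchronous count of Nrm1-SA was 33, against 21 with DESeq2, 19 in a fit restricted to asynchronous libraries, and 17 to 34 with single replicates left out. That of Nrm1-SD was 18, against 7 in that restricted fit and 10 to 23 with replicates left out, and that of Nrm1-SD against Nrm1-SA was 18, against 9 and 15 to 17. The time course counts with replicates left out were 43 to 50 for Nrm1-SA (49), 20 to 35 for Nrm1-SD (26) and 31 to 44 between them (42), and the Nrm1-SD count was 17 with a minimum mean of 10, which removes members. The 0 min minus asynchronous difference in Nrm1-SD against Nrm1 (1) gave 0 by edgeR and 2 with the replicate block, and the change of course in Nrm1-SD (3) gave 5 with a pseudocount of 5. The cause of these shifts was not tested. Replicate numbers do not pair the strains, since none of 37 correlations between strains exceeded 0.1, and with the replicate block 106 of 106 values of named members kept their direction and side. Depth limits the 20 members with means between 2 and 10.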
